A study of Homo sapiens with 12 samples.

Results

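The MYC network genes are 10 members given by name: MYC, MYCN and MYCL, the partners MAX and MLX, and the antagonists MXD1, MXD3, MXD4, MXI1 and MNT. All 10 were found among 20136 protein-coding genes of the annotation. They were chosen by name and not by a measured value, and each was described by the H3K4me3 and IgG peaks within 1, 2.5 and 10 kb of its 5′ end and of any annotated transcript start. CUT&RUN, in which an antibody tethers a nuclease to chromatin and the released fragments are sequenced, was carried out on BON1, a cell line from a human pancreatic neuroendocrine tumor. Control cells (BON1/TGL/pQ) were set against cells that overexpress HA-Bcl-xL, an HA-tagged anti-apoptotic protein (BON1/TGL/HA-Bcl-xL). Both were grown in medium with puromycin, both names hold TGL, which the labels do not spell out, and 500000 cells were taken for each condition. The labels do not give the promoter that drives HA-Bcl-xL, or say whether the replicates were separate cultures, so the spread between them may be technical, or whether each line is 1 clone. The series compared the lines for H3K4me3, a histone mark found at active and poised promoters.

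MYC, MYCN and MYCL are transcription factors that bind DNA only as dimers with MAX, at the E-box CACGTG and related CANNTG sequences, and activate genes of growth, ribosome production and metabolism. The MXD proteins, MXI1 and MNT compete for MAX, bind the same sequences and recruit SIN3 corepressors with histone deacetylases. MLX stands beside MAX as a second hub: it pairs with the glucose-responsive factors MLXIP and MLXIPL, and also with MNT and some MXD proteins. Neuroendocrine cancers can amplify any of the MYC paralogs, and MYCN and MYCL are best known from neural and neuroendocrine tissue.

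Peak lists of 11 libraries were used: H3K4me3 of control replicates 1 to 3 and of HA-Bcl-xL replicates 2 and 3, and IgG of replicates 1 to 3 of each line. Replicate 1 of H3K4me3 in HA-Bcl-xL cells was not analysed here. The H3K4me3 lists held 10247 to 17711 peaks, and the median summit rested on 9 to 12 fragments. Control replicate 3 had the shortest list. The lowest background solved for any of its peaks was 0.0478 fragments per base, against 0.0659 to 0.0705 in the other H3K4me3 libraries. The IgG lists held 1674 to 2113 peaks in control cells and 244 to 268 in HA-Bcl-xL cells. Of 10 neuroendocrine markers, CHGB, SCG2 and NEUROD1 were called in all 5 H3K4me3 libraries within 1 kb of the 5′ end, 3 more had a peak in some, and SCG5 and SSTR2 had none within 10 kb of any start. TPH1 had one in the 2 HA-Bcl-xL libraries and in none of the controls, a pattern seen at 0.844% of all genes. Of 4 epithelial markers 3 had a peak in all 5, while none of the immune, fibroblast, endothelial and hepatocyte markers measured had one within 1 kb in any library.

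In each library H3K4me3 was called near the 5′ end of 3 to 6 of the 10 network genes, and no member had calls in every library of one line and none of the other. Within 1 kb of the 5′ end, 6, 5 and 3 of the 10 members had a peak in control replicates 1, 2 and 3. HA-Bcl-xL replicates 2 and 3, called the HA-Bcl-xL pair here, had 4 and 6. Among all protein-coding genes the shares were 40.4%, 32.4% and 28.2% in the control libraries and 38.1% and 36.5% in the HA-Bcl-xL libraries. The control mean was 4.67 ± 1.53 members (SD, n = 3), and the HA-Bcl-xL mean was 5 ± 1.41 (SD, n = 2). Their difference, 0.333 members, was smaller than the pooled SD of 1.49, and the groups overlapped. Within 2.5 kb of the 5′ end the numbers were 7, 5 and 3 in control and 5 and 8 in HA-Bcl-xL libraries, beside 45.8%, 37.8% and 33.0% and then 43.4% and 41.8% of all genes. Within 10 kb they were 8, 6 and 4 and then 7 and 9, beside 51.4%, 42.9% and 38.1% and then 49.2% and 47.7% of all genes. Within 1 kb of any annotated start, the numbers were 8, 6 and 4 in control and 7 and 9 in HA-Bcl-xL libraries, a difference of 2 members against a pooled SD of 1.83. The members have 3 to 37 annotated starts each, and the shares of all genes were then 48.4%, 39.3% and 34.4% in control and 45.8% and 43.97% in HA-Bcl-xL libraries. With 2 libraries against 3 no exact test can pass 0.05, so these differences were not tested. Control replicate 3, with the shortest list, had the fewest members at each of these reference points, and the part of list length in these counts was not tested.

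**Figure D1:**
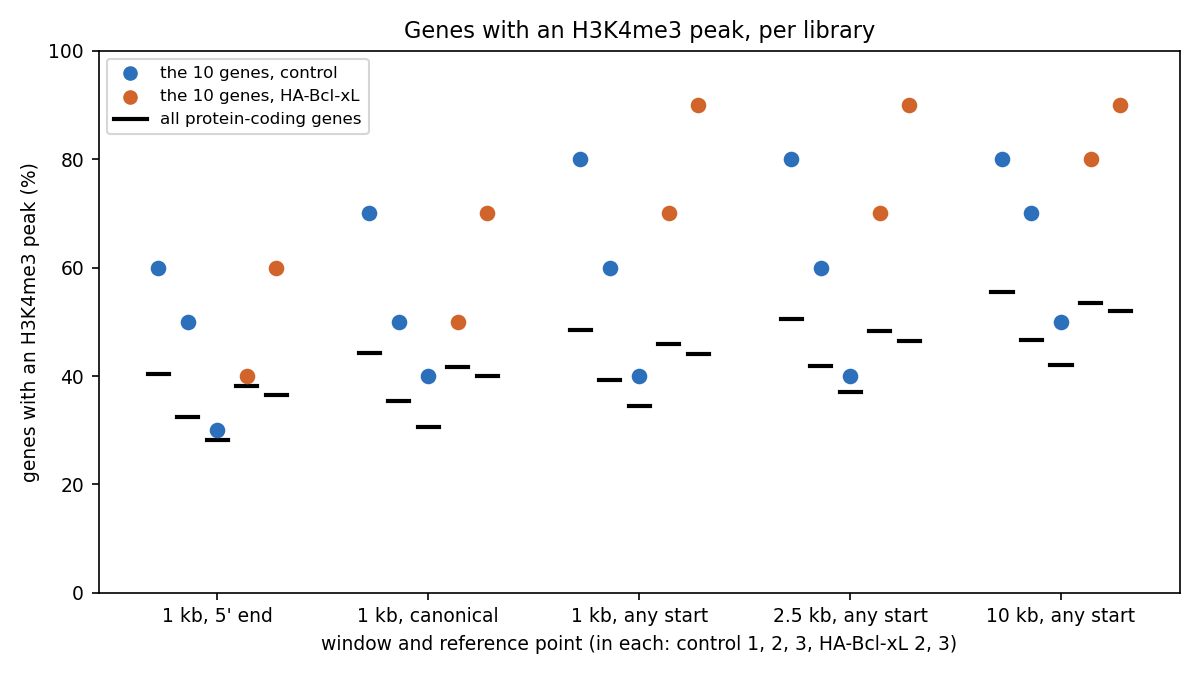
Share of genes with an H3K4me3 peak in each library (y axis, %) for 5 windows (x axis); blue points are control replicates 1, 2 and 3, orange points HA-Bcl-xL replicates 2 and 3, and black bars all protein-coding genes in the same library. The blue and orange points overlap in range in every window, and control replicate 3 has the lowest point in each.

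MYC was the single member called in all 5 libraries within 1 kb of the 5′ end, a pattern that 21.3% of genes share. MYCN and MXD1 had none there in any library, against 51.8% of genes. No member was called in both HA-Bcl-xL lists while missing from every control list, against 0.844% of genes, or in all control and no HA-Bcl-xL libraries, against 0.248%. The reference point mattered for these counts. At the canonical start, the start of the transcript that the annotation ranks first, MYC and MXD1 had a peak in all 5 libraries (23.2% of 19856 genes did). Within 1 kb of any start MYC, MXD1 and MXI1 did (26.5%), and the same genes within 2.5 kb (28.7%). MYCN alone had no peak within 10 kb of any start in any library, against 34.7% of genes.

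Among the 3 MYC paralogs, each showed its own pattern: a peak in all 5 libraries at MYC, in 4 at MYCL and in none at MYCN. Of the 20136 protein-coding genes, 60 outside the members had the MYCL pattern within 1 kb of the 5′ end. MYCL (ENSG00000116990, chromosome 1, minus strand), the paralog first found in small cell lung cancer, has its 5′ end at 40367928 and its canonical start at 40367589. Control replicates 2 and 3 and HA-Bcl-xL replicates 2 and 3 had a single peak each, 85, 79, 88 and 76 bp wide, and control replicate 1, the library with the longest list, had none. The peaks lay in 1 stretch 105 to 192 bp upstream of the canonical start, which is an intron of the longest annotated transcript. Their summits held 8 and 9 fragments in control and 10 and 11 in HA-Bcl-xL libraries, yet they outranked 68.3% to 78.4% of peaks of their lists. The absence in control replicate 1 is the absence of a call at this depth, and whether the mark was absent there cannot be told. The stretch covered by these peaks, chr1:40367694-40367781 (GRCh37, minus strand), is shown because it is the whole of the H3K4me3 signal called at MYCL; capitals would mark CANNTG on either strand, and it holds none.
MYCL: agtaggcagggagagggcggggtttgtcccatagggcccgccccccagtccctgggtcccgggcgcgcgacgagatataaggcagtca
Of 71993 windows of this length around the summits of all H3K4me3 peaks, 28.7% hold a CANNTG.

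MYCN (ENSG00000134323, chromosome 2, plus strand, 5′ end and canonical start at 16080672), the paralog amplified in neuroblastoma, had 0 bases under peaks in each of the 11 libraries within 10 kb of any of its 3 starts. The antisense gene MYCNOS, whose 5′ end lies 1699 bp downstream of that of MYCN, falls in the same empty window. The 250 bases before the start had 57.2% GC, and 35.0% of genes in that GC decile had a peak within 1 kb of the canonical start in all 5 libraries. They are shown, chr2:16080422-16080671 (GRCh37, plus strand), as the promoter in the family without a peak, with the 1 CANNTG in capitals; 60.4% of summit windows of this length hold one.
MYCN: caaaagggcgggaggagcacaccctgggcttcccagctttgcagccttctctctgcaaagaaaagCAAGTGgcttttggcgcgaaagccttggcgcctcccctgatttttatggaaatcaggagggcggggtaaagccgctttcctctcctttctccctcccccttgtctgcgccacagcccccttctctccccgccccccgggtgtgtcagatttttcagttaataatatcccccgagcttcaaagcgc

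MYC (ENSG00000136997, chromosome 8, plus strand) has its 5′ end at 128747680 in GRCh37 and its canonical start 797 bp downstream, at 128748477. All 5 H3K4me3 libraries had a peak over the canonical start, between 128748389 and 128748574, across untranslated and coding exon sequence. The summits lay between 16 bp upstream and 42 bp downstream of that start. The summits held 20, 19 and 22 fragments in control replicates 1 to 3 and 22 and 21 in the HA-Bcl-xL pair, so the lines did not separate. In its own list the peak outranked 64.9% to 91.1% of peaks by the authors' deposited −log10 p, the lowest in control replicate 1 and the highest in control replicate 3. Control replicate 2 had another, weaker peak at 128746818 to 128746901, 1604 bp upstream of the canonical start, with 12 fragments. The noncoding gene CASC11, on the other strand, has its 5′ end 3553 bp downstream of that of MYC and 86 bp from another annotated MYC start, where no library had a peak.

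The hub proteins MAX and MLX were called in the same 2 libraries only, control replicate 1 and HA-Bcl-xL replicate 3. MAX (ENSG00000125952, chromosome 14, minus strand, 5′ end 65569413, canonical start 65569235) had peaks upstream and downstream of its canonical start in these libraries and none over it. Downstream, at 65568224 to 65568411, both had a peak over exon and intron sequence with 9 and 11 fragments, 24 bp from another annotated start in control replicate 1 and covering that start in HA-Bcl-xL replicate 3. Its edge lay 1034 and 1002 bp from the 5′ end, just outside 1 kb. Upstream, control replicate 1 had a peak 832 bp and HA-Bcl-xL replicate 3 a peak 470 bp before the canonical start, with 10 and 12 fragments, and these did not overlap. MLX (ENSG00000108788, chromosome 17, plus strand, 5′ end 40719090) had 1 peak in each of these libraries, at 40719425 to 40719511 in an intron, 361 and 343 bp downstream of the canonical start, with 11 and 10 fragments. Outside the members, 251 genes had this pattern of calls within 1 kb of the 5′ end. The other three libraries had 0 bases under peaks within 2.5 kb of any start of MAX or MLX. Within 10 kb of a start, all 5 libraries had a peak near MLX, at 40729687 to 40729899; it covers the start of PSMC3IP, a neighbor named after its peaks were seen.

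MXD1 and MXI1 were the antagonists called in every library, in both cases away from the 5′ end of the gene. MXD1 (ENSG00000059728, chromosome 2, plus strand) is induced as cells leave the cycle and differentiate. Its annotated 5′ end at 70124820 had no peak within 1 kb, and its canonical start lies 17421 bp further on, at 70142241. At that start all 5 libraries had a peak between 70142091 and 70142263, with summits 36 to 92 bp upstream. The summits held 23, 17 and 13 fragments in control replicates 1 to 3 and 18 and 21 in the HA-Bcl-xL pair, and both HA-Bcl-xL values fell between the control extremes. By the authors' −log10 p the peaks outranked 68.7% to 90.2% of their lists, the lowest in control replicate 3. The part of this region before the first start of the cluster, chr2:70142091-70142172 (GRCh37, plus strand), is shown as the upstream side of a peak found in all 5 libraries, with its CANNTG in capitals. The peaks of the libraries reach into this stretch to different lengths, and the CANNTG, at 70142109 to 70142114, lies wholly under a peak in HA-Bcl-xL replicate 3 alone. Of summit windows this long, 27.1% hold a CANNTG and 2.11% a CACGTG.
MXD1: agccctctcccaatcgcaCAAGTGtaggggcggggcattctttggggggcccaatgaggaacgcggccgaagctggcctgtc
Single libraries had a further peak, control replicate 1 at 1134 bp downstream and control replicate 3 at 1078 bp upstream of the canonical start. Within 10 kb of the 5′ end, a peak in all 5 libraries at 70120854 to 70121203 covers the start of SNRNP27, which lies 3732 bp upstream of that 5′ end and was named after its peaks were seen.

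MXI1 (ENSG00000119950, chromosome 10, plus strand, 5′ end and canonical start 111967363), also called MXD2, has 37 annotated starts, the most of the members. Its recurrent peak was intronic, between 111970891 and 111971127, with summits 3579 to 3659 bp downstream of the 5′ end and at least 902 bp from the nearest annotated start. It held 17, 19 and 20 fragments in control replicates 1 to 3 and 22 and 19 in the HA-Bcl-xL pair, again without separation of the lines. At the 5′ end itself, control replicates 2 and 3 had a peak, with 14 and 11 fragments at 38 and 47 bp upstream, and the other libraries had none. A further 28 genes shared that pattern within 1 kb of the 5′ end. Control replicate 1 and HA-Bcl-xL replicate 3 instead had a peak at 111968850 to 111969024, about midway to the intronic one, with 16 and 17 fragments. A noncoding gene, ENSG00000228417, has its 5′ end 986 bp downstream of that of MXI1 on the other strand. A separate region at 111985515 to 111985667, 84 to 148 bp from another annotated start, had a peak in control replicate 3 and both HA-Bcl-xL libraries, with 8, 8 and 13 fragments. The stretch that the intronic peaks of all 5 libraries have in common, chr10:111970929-111971008 (GRCh37, plus strand), is shown with its 3 CANNTG in capitals; 26.4% of summit windows of this length hold at least 1.
MXI1: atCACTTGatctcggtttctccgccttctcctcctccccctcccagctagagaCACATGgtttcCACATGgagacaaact

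MXD3 and MXD4 shared their pattern, a call in every library but control replicate 3 within 1 kb of the 5′ end, with 867 genes outside the members. At a −log10 q of at least 5, MXD3 kept a call in 1 library and MXD4 in 4. With equal list lengths these became 1 and 3. MXD3 (ENSG00000213347, chromosome 5, minus strand, 5′ end 176739758), unusual in the family for its expression in dividing cells, had 2 regions either side of its canonical start at 176738899. The upstream one, 176739894 to 176740155, held 8 and 9 fragments in control replicates 1 and 2 and 8 and 7 in the HA-Bcl-xL pair. Its positions were loose: the control replicate 2 peak at 176740032 to 176740155 and the HA-Bcl-xL replicate 3 peak at 176739894 to 176739986 did not overlap. The downstream one, 176738461 to 176738590, held 14 fragments in control replicate 1 and 13 in each HA-Bcl-xL library, 336 to 358 bp past the canonical start, over exon and intron sequence. By the authors' −log10 p these downstream peaks outranked 73.0% to 73.7% of their lists, and the upstream ones 11.5% to 40.9%. MXD3 was also the member with an IgG peak, 80 bp wide, in HA-Bcl-xL replicate 1 at 9375 bp upstream of the 5′ end. Across all genes 9.06% had an IgG peak within 10 kb of a start in at least 1 library. Within 1 kb of the 5′ end no member had one, against 0.785% of genes.

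MXD4 (ENSG00000123933, chromosome 4, minus strand, 5′ end and canonical start 2263836) had peaks 236 to 404 bp upstream in the same 4 libraries. They held 8 and 6 fragments in control replicates 1 and 2 and 7 and 9 in the HA-Bcl-xL pair, the lowest summit of the family among them, and control replicate 3 had none. No base was shared by all 4 peaks, because that of control replicate 2, at 2264039 to 2264120, ended before the control replicate 1 and HA-Bcl-xL replicate 3 peaks began. The whole stretch covered, chr4:2264039-2264283 (GRCh37, minus strand), is shown because it holds a CACGTG, in capitals, at 2264069 to 2264074. That site lies under the control replicate 2 peak, the one with 6 fragments, and under none of the other 3 peaks; 4.72% of summit windows of this length hold one.
MXD4: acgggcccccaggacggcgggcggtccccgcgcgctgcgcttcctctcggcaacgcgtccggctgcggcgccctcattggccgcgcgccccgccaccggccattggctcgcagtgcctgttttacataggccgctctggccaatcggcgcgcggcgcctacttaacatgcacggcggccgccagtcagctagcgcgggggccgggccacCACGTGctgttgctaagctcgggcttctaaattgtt

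MNT (ENSG00000070444, chromosome 17, minus strand, 5′ end 2304398, canonical start 2304354), a broadly expressed antagonist that pairs with MAX and MLX, was called in control replicate 1 and both HA-Bcl-xL libraries. The shared peak was intronic, 1036 to 1066 bp past the canonical start, with 12 fragments in control replicate 1 and 12 and 14 in the HA-Bcl-xL pair. Its near edge, 1061 bp from the 5′ end in all 3 libraries, lay outside the 1 kb window. The edge at 2303337 came back to the base: both HA-Bcl-xL peaks ran from 2303238 to 2303337 and that of control replicate 1 from 2303240 to 2303337. Control replicate 1 also had a peak 670 bp upstream of the canonical start with 11 fragments, the one MNT peak within 1 kb of the 5′ end. Of the 20136 protein-coding genes, 467 outside the members were likewise called there in control replicate 1 alone. The intronic stretch, chr17:2303238-2303337 (GRCh37, minus strand), is shown for this recurrence; capitals would mark CANNTG, which it lacks and 32.0% of summit windows of its length hold.
MNT: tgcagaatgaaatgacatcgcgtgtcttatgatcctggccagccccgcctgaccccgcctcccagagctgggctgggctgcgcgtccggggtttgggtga

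**Figure D2:**
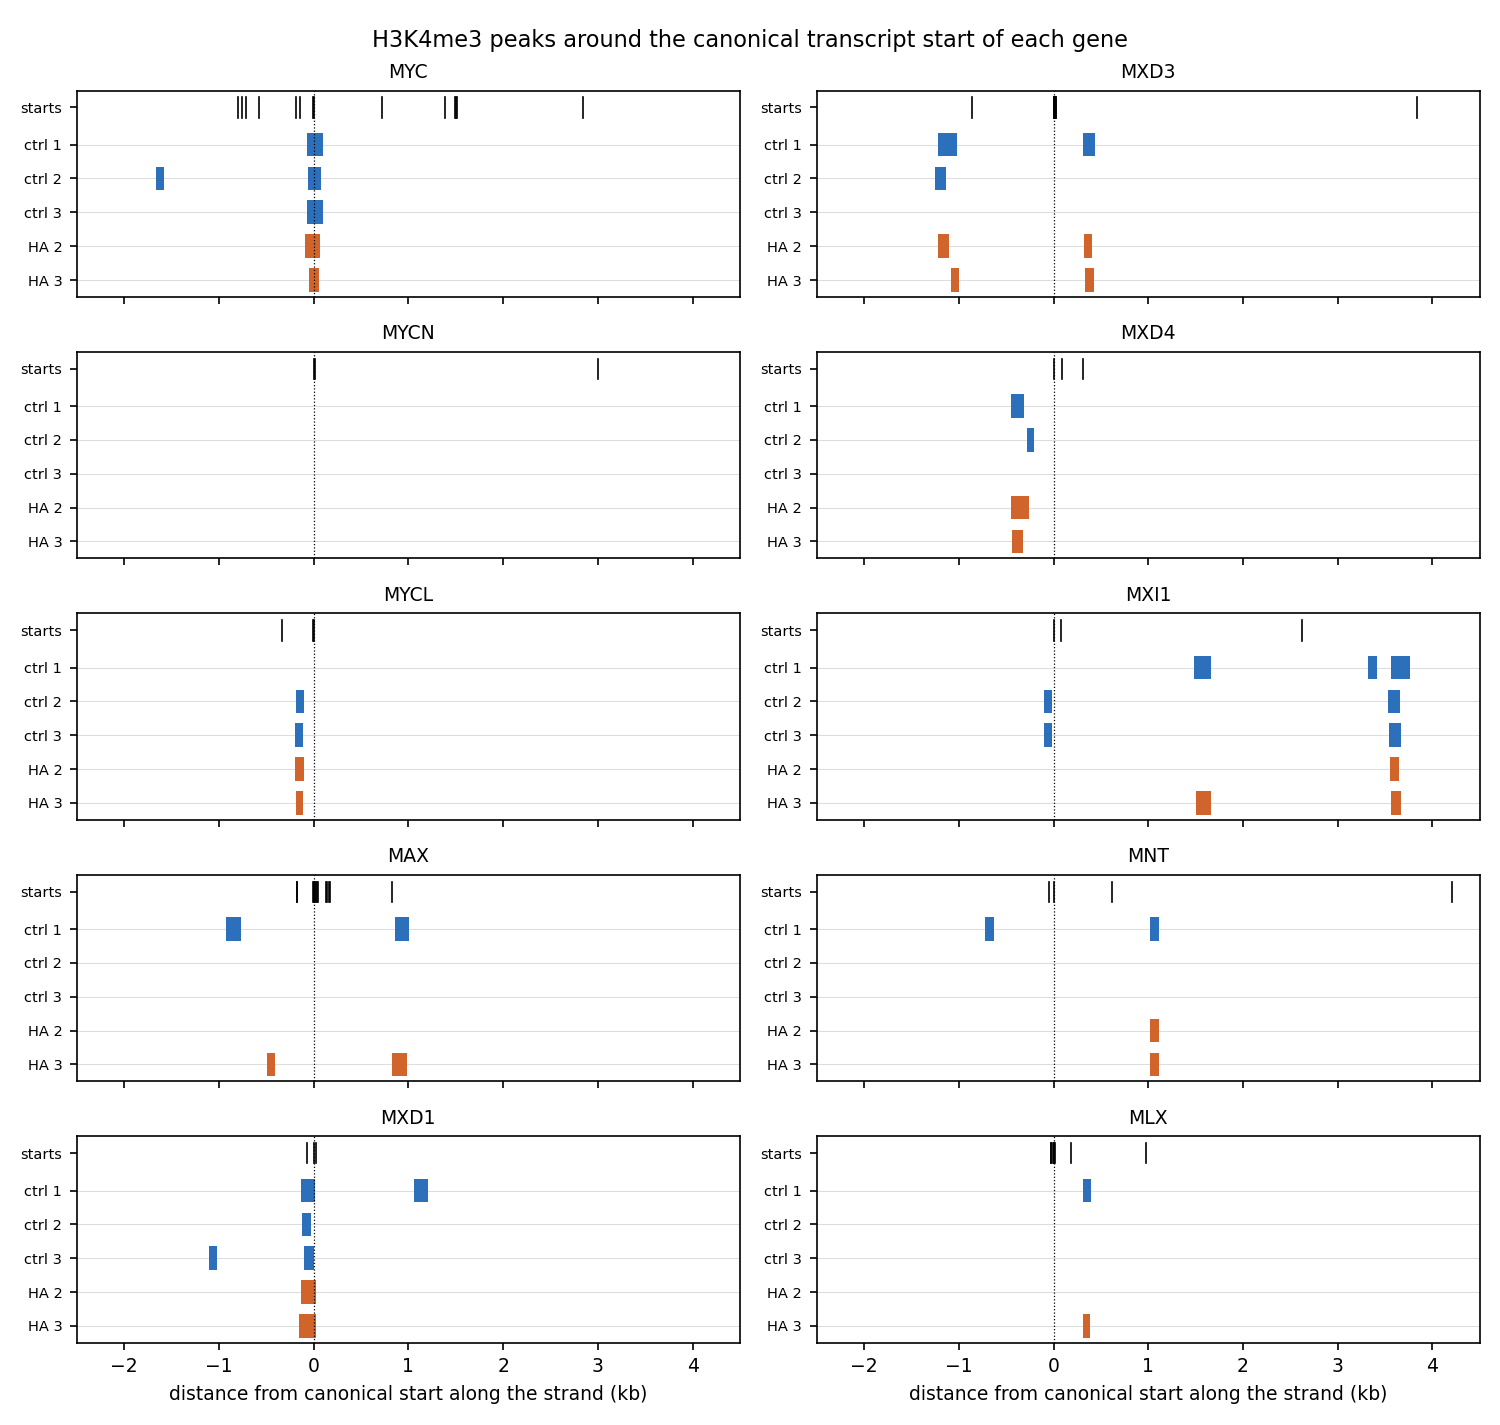
H3K4me3 peaks of each member by distance from the canonical start along the gene's strand (x axis, kb), with 1 row for each library (y axis; ctrl is control, HA is HA-Bcl-xL, blue and orange) and annotated starts as black ticks in the top row. Bars sit at distance 0 in all 5 rows for MYC and touch or adjoin it for MXD1, MXI1 has bars at about 3.6 kb in all 5 rows, and MYCN has none.

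Across the family, 51 peaks lay within 2.5 kb of a start, of which 11 covered a start. They were 75 to 202 bp wide, with a median of 102 bp, and held 6 to 23 fragments at the summit, with a median of 12. The mark was thus read from small numbers of fragments, and a missing call at MAX, MLX, MNT or MXD4 is a call not made at this depth. In bulk chromatin, fewer cells with the mark and less of it per cell cannot be told apart.

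MYC, MXD1 and MXI1 were also the members with bases under peaks in all 5 libraries when these were summed within 2.5 kb of any start. MYC had 164, 216 and 171 bases in control replicates 1 to 3 and 150 and 102 in the HA-Bcl-xL pair. MXD1 had 287, 98 and 188 bases in control and 153 and 171 in HA-Bcl-xL libraries. MXI1 had 466, 216 and 299 bases in control and 175 and 418 in HA-Bcl-xL libraries. For MYC both HA-Bcl-xL values were below every control value, whereas for MXD1 and MXI1 the groups overlapped. Among genes with any bases in the same library, MYC stood at percentile 28.2, 56.0 and 51.8 in control and 31.4 and 17.4 in HA-Bcl-xL libraries, and MXI1 at 82.0, 56.0 and 82.1 and then 38.2 and 87.5. The 2 genes had equal sums in control replicate 2, and both were below the median in HA-Bcl-xL replicate 2. The sum can grow with the number of annotated starts. Of the 5779 genes with bases in all 5 libraries, 5.49% had both HA-Bcl-xL values below every control value. Once each library was centred on its median on the log2 scale, the MYC groups overlapped too, at -1.08, -0.15 and -0.17 in control and -0.91 and -1.35 in HA-Bcl-xL libraries.

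MAX had 314, 0 and 0 bases in control and 0 and 244 in HA-Bcl-xL libraries, and MLX 87, 0 and 0 and then 0 and 75. MXD3 had 332, 124 and 0 bases in control and 197 and 189 in HA-Bcl-xL libraries, and MXD4 136, 82 and 0 and then 190 and 116. MNT had 193, 0 and 0 in control and 100 in each HA-Bcl-xL library, and MYCL 0, 85 and 79 and then 88 and 76. For MXD3, MNT, MAX and MLX the HA-Bcl-xL values lay inside the control range. For MXD4 the ranges overlapped, and for MYCL they overlapped between 76 and 85 bases. All IgG libraries had 0 bases at every member within 2.5 kb.

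**Figure D3:**
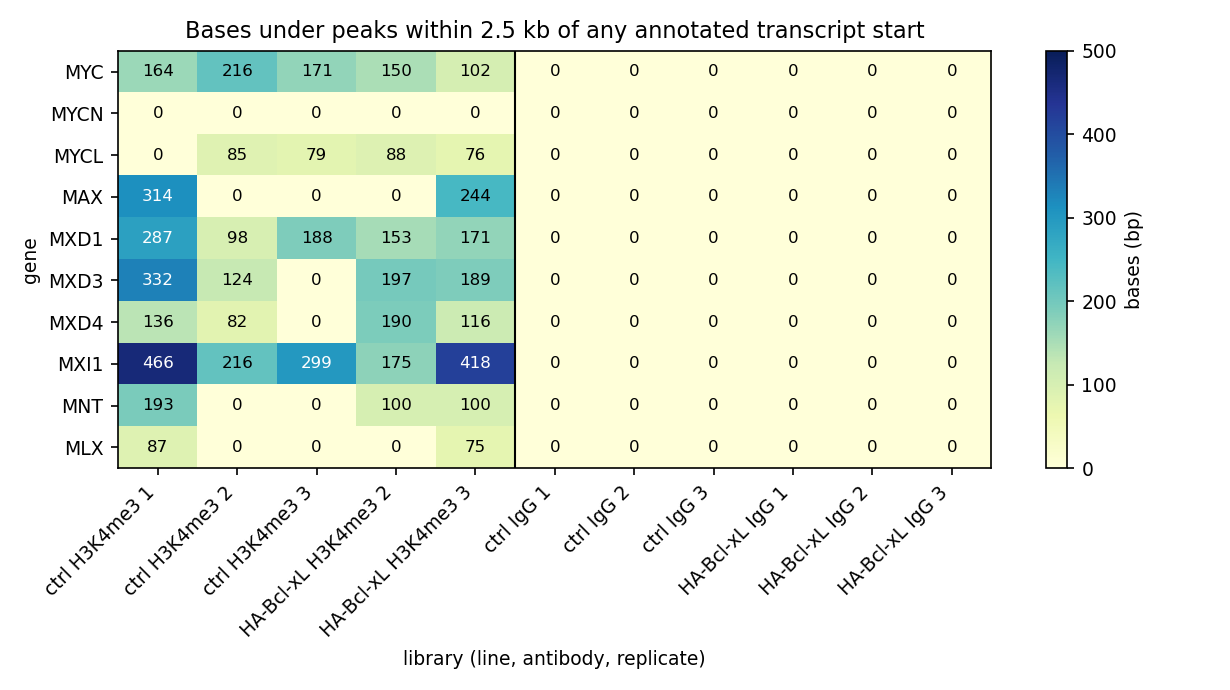
Bases under peaks within 2.5 kb of any annotated start, for each member (rows) and library (columns, H3K4me3 left and IgG right of the black line), with the value in bp in each cell and as color. MYC, MXD1 and MXI1 are above 0 in all 5 H3K4me3 columns, MYCN in none, and every IgG cell is 0.

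The windows differ in length with the spread of annotated starts, from 5.34 kb for MYCL to 24.8 kb for MXI1, so levels between genes were compared per kb of window. In control cells MYC had 21.3 ± 3.27 bases per kb, MAX 17.4 ± 30.2, MXD3 15.7 ± 17.3, MXI1 13.2 ± 5.13, MXD1 12.7 ± 6.26 and MYCL 10.2 ± 8.88 (SD, n = 3 each). MXD4 had 7.05 ± 6.64, MLX 4.83 ± 8.36 and MNT 3.61 ± 6.26 bases per kb, and MYCN 0. Neighbors in this order did not differ beyond their spread. In HA-Bcl-xL cells (n = 2) the order was MAX at 20.3 ± 28.7, MXD3 at 19.9 ± 0.583, MYCL at 15.4 ± 1.59, MXD4 at 14.8 ± 5.07 and MYC at 14.6 ± 3.93 (SD). There MXI1 had 11.9 ± 6.92, MXD1 10.7 ± 0.843, MLX 6.24 ± 8.83 and MNT 5.62 ± 0 bases per kb, the SD of 0 coming from 2 equal values. MYCN had 0 in both, so the SDs of MNT and MYCN were 0 and could not serve to compare them. Of the other neighbors in this order, MXD3 and MYCL lay further apart than either SD, and the rest did not. An SD from 2 values is a poor measure of spread. MYC was highest in control cells and below MAX, MXD3, MYCL and MXD4 in HA-Bcl-xL cells, a difference of order that was not tested. The MAX mean there came from 1 library, with 0 and 244 bases in HA-Bcl-xL replicates 2 and 3. MYC lay below MYCL and MXD4 by less than its own SD.

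Whether the length under peaks differed between the lines was tested with limma over all 5779 genes, on log2 of the bases, with Benjamini-Hochberg adjustment. No gene passed an adjusted p of 0.05 (0%), 276 had an unadjusted p under 0.05, and the smallest adjusted p was 0.844. The mean at MYC was 184 ± 28.2 bases in control (SD, n = 3) against 126 ± 33.9 with HA-Bcl-xL (SD, n = 2), a log2 difference of -0.67 (SE 0.441) with a limma adjusted p of 0.997. MXD1 had a log2 difference of -0.21 (SE 0.456) and MXI1 of -0.31 (SE 0.475), with the same adjusted p from limma. The sign at MXD1 turned to 0.03 without control replicate 3 and that at MXI1 to 0.37 without HA-Bcl-xL replicate 2. The other members lacked bases in at least 1 library and were outside this fit. In a limma fit of the genes with bases in at least 3 libraries, on log2 of the bases plus 50, the log2 differences were 0.75 at MXD4 (SE 0.478), 0.67 at MNT (SE 0.579), 0.55 at MXD3 (SE 0.630) and 0.31 at MYCL (SE 0.697). They ran opposite in sign to those at MYC, MXD1 and MXI1, and the smallest adjusted p from limma among the 7 members in that fit was 0.984. Each of these 4 members had 0 bases in at least 1 control library. In the fit of genes with bases in every library used, MYCL was at -0.35 without control replicate 1. Without control replicate 3, MXD3 was at 0.0058 and MXD4 at 0.57 in such a fit.

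The background around the peaks differed widely between the members, highest at MYC and at the MXI1 peaks near its 5′ end, and lowest at MYCL and MXD4. This local background, solved from the authors' fold and −log10 p and divided by the lowest background in the same list, was 34.3, 26.7 and 32.3 at the MYC peak in control replicates 1 to 3 and 34.2 and 31.7 in the HA-Bcl-xL pair. It was above that of 94.5% to 97.1% of the peaks of those lists, whose medians were 7.96 to 10.5. The fold over background at MYC, 6.44 to 9.05, is a ratio to that raised background. At the MXI1 peaks within 4 kb of the 5′ end the local background was 23.2 to 29.6, and at the MXD1 start 13.7 to 21.4. At the MXI1 region at 111985515 to 111985667 it was 6.52 in control replicate 3 and 7.36 and 6.73 in the HA-Bcl-xL pair. At MYCL it was 2.34 and 4.40 in control and 3.74 and 4.34 in HA-Bcl-xL libraries, and at MXD4 3.50 and 2.69 and then 4.32 and 4.56, below the median of every list. MAX, MXD3, MNT and MLX lay near the medians, between 7.96 and 13.1. Neither the source of the local background nor its difference between the lines was tested.

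**Figure D4:**
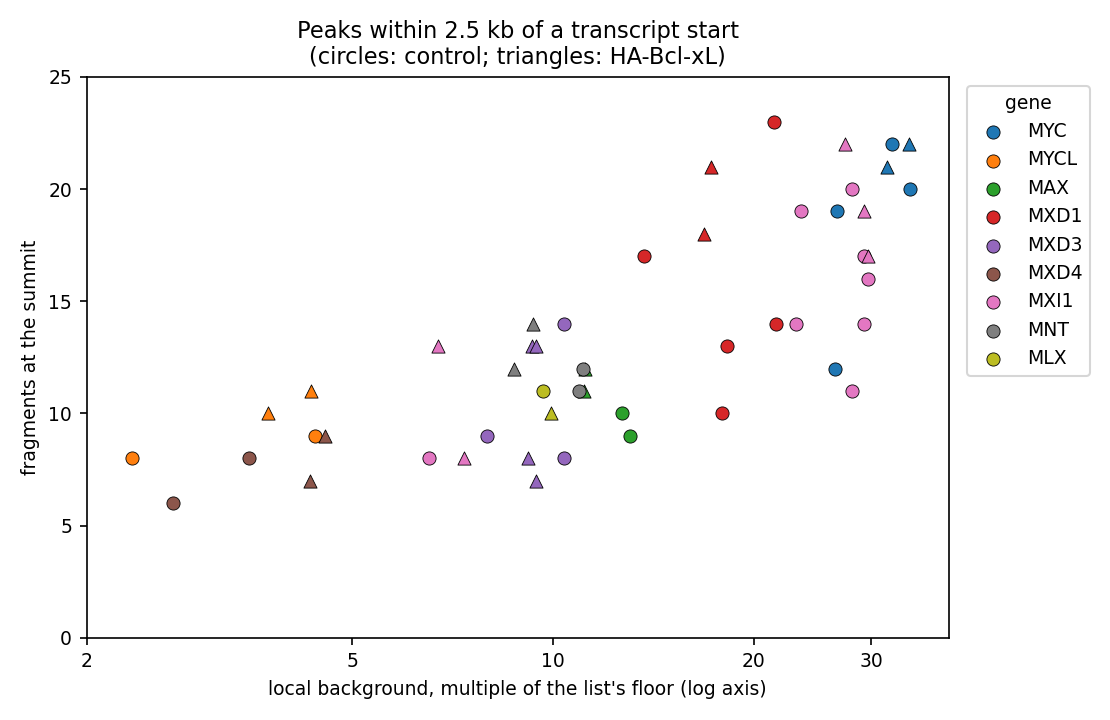
Fragments at the summit (y axis) against the local background as a multiple of the lowest background of the list (x axis, log scale) for each H3K4me3 peak within 2.5 kb of a start, colored by gene; circles are control and triangles HA-Bcl-xL libraries. MYC peaks lie at the right, at 26 to 34 times the floor, and MYCL and MXD4 peaks at the left, under 5 times.

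In the 250 bases before their canonical starts the members had 55.6% to 78% GC, with a median of 70.8% against 63.2% over 19855 promoters. MXI1 was lowest and MNT highest, and in the GC decile of MNT 8.16% of genes had a peak in all 5 libraries at the canonical start, against 34.2% in that of MYC. On either strand, CACGTG was found in the promoters of MAX, MXD4, MNT and MLX, 4 of 10, and in 7.88% of all promoters. CANNTG, which includes CACGTG, was found in 8 of 10 and in 56.7% of all. TATAAA was found at MYC alone and in 9.26% of all promoters. A match is a sequence of letters and not a bound site.

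Among the other genes of the pathway, more cofactors of MYC than target genes were called in all 5 libraries at the 5′ end, a contrast that was not tested. Of 39 pathway genes outside the 10 members, 26, 18 and 15 were called in the control libraries within 1 kb of the 5′ end, and 24 and 21 in the HA-Bcl-xL pair. These are 66.7%, 46.2% and 38.5% and then 61.5% and 53.8% of the list, beside 40.4%, 32.4% and 28.2% and then 38.1% and 36.5% of all genes. All 5 libraries called 12 of them, beside 21.3% of all genes. Among 10 cofactors of MYC, 7 did, including the TIP60 complex genes RUVBL1, RUVBL2, KAT5 and EP400. Of 7 genes for MYC turnover, SKP2, for a ubiquitin ligase subunit, and HUWE1, for a ubiquitin ligase, did. Among 12 MYC target genes, NPM1, which encodes nucleophosmin, was the only one at the 5′ end, CDK4 joined it at the canonical start, and NCL within 1 kb of any start. For CCND2 and TERT no H3K4me3 library gave a peak within 10 kb of any start. Of the 5 corepressor genes SIN3A had a peak in all 5 libraries and SIN3B no H3K4me3 peak within 10 kb. Of the remaining dimer partners, MLXIPL was called at the 5′ end in 4 libraries, MGA in 1 and MLXIP in none. Of the 2 targets of MLX dimers, TXNIP, an inhibitor of glucose uptake, had one in all 5. No pathway gene had a peak in all libraries of one line and none of the other, patterns seen at 0.844% and 0.248% of all genes, and none had an IgG peak within 1 kb, seen at 0.785%.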

How the data were processed

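Per the submitters' processing notes, the tools included bcl2fastq 2.20, Trimmomatic 0.36, Bowtie2 2.2.9, MACS2 2.1.1 and deepTools 3.5.1, with the build hg19 (GRCh37); roles and settings are not given in the sources used here. Each of the 11 lists used is a narrowPeak list that the authors deposited for 1 library. Each deposited peak has the authors' score, fold over background, −log10 p and −log10 q, used to rank or filter peaks within a list. No deposited peak had a q-value above 0.01. The lists give no read totals.

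Fragments at a summit and the local background were solved from the deposited fold and −log10 p, assuming a ratio of values with 1 added and a Poisson tail; 95.9% to 99.97% of peaks per list gave a whole number within 0.001 in −log10 p. Starts came from GENCODE release 44 lifted to GRCh37 on chromosomes 1 to 22, X and Y, with 27 repeated symbols merged. Sequences were read from the GRCh37 genome. A peak counted with 1 base in the window. Bases under peaks were fitted in limma 3.58.1 (R 4.3.3) on log2, library medians removed, without a block. The replicate numbers were checked for pairing, and pathway and marker lists matched by symbol; PECAM1 was not matched and not used. Scripts ran in Python 3.11.15 with pandas 2.3.3, pysam 0.24.0 and matplotlib 3.10.9, and the steps were tested on simulated data. All 10 members are named; of the pathway list, genes with a peak in all 5 libraries, in all of one line and none of the other, or none within 10 kb, could be named, with up to 4 examples a group in the order of the list; dimer partners, CDK4 and NCL were added after their values were seen. Members, lists and tests were chosen with earlier results of these data known. Alternatives were other windows and starts, equal list lengths, peaks at a −log10 q of 5 or more, removal of peaks overlapping IgG, other fits, and each library left out.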

Additional observations from a re-analysis of the deposited data

How the results depend on the processing

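Within 1 kb of the 5′ end, 1 member had a peak in all libraries. This became 3 within 10 kb of the 5′ end, 3 within 1 kb and 3 within 2.5 kb of any start, 4 within 10 kb of any start, and 2 at the canonical start, an alternative chosen after seeing the data. Leaving out 1 library gave 1 to 3: 2 without control replicate 1, which adds MYCL, and 3 without control replicate 3, which adds MXD3 and MXD4. The difference between the lines in members with a peak, 0.333, was 2 within 10 kb of the 5′ end and within 1 or 2.5 kb of any start, 1.83 within 10 kb of any start, 1.5 within 2.5 kb of the 5′ end, 0.667 at the canonical start, -0.5 with equal list lengths and 0 at a −log10 q of at least 5; leaving out 1 library gave -0.667 to 1.33. The number of members with an IgG peak, 0, was 1 in both 10 kb windows. The limma count of 0 genes became 3, all lower in HA-Bcl-xL, without HA-Bcl-xL replicate 3 (smallest adjusted p 0.0351), where the lone library is assumed to vary like the control libraries; it was 0 in the 13 other alternatives, with 147 to 388 genes at an unadjusted p under 0.05. The log2 difference at MXD1, -0.21, turned to 0.21 within 1 kb and 0.13 within 10 kb of any start, 0.077 at a −log10 q of at least 5 and 0.026 without control replicate 3; leaving out 1 library gave -0.60 to 0.026. That at MXI1, -0.31, turned to 0.37 without HA-Bcl-xL replicate 2, in a range of -0.997 to 0.37. Within 10 kb of the 5′ end, MXD1 counted in all libraries only through peaks at or near the start of SNRNP27. Within 10 kb of any start, MLX counted in all libraries only through the peak at the start of PSMC3IP. The cause of the other moves was not tested. Counts were taken as the same when equal or within a factor of 1.5. The difference in members was taken as the same when it changed by less than the pooled SD of 1.49, whatever its sign. Its turns to -0.5 and -0.667 were therefore not counted as moves. A log2 difference counted as reversed when its sign turned. By these rules, of 249 values recomputed, 203 stayed the same, 41 moved and 5 reversed, all 5 at MXD1 and MXI1.

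Whether the replicate numbers pair the samples could not be told. The deviations of same-numbered libraries correlated at 0.0055 and 0.0313 over 5779 genes. With 2 HA-Bcl-xL libraries, whose deviations mirror each other, both values rest on a single contrast. With a replicate block, limma called 0 genes, 361 had an unadjusted p under 0.05 and the smallest adjusted p was 0.107. The members' summits held 6 to 23 fragments, and the part of depth in missing calls was not tested. Copies made by PCR are not independent, and 2 libraries against 3 cannot pass 0.05 in an exact test.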

Other observations

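The peaks of the network genes covered sequence with less GC than their starts. In all 9 members with a peak within 2.5 kb of a start, the GC content under the peaks was below that within 100 bp of the canonical start. The same held for 84.8% of 11848 protein-coding genes with such a peak, so it is a feature of the lists at large. The gap was widest at MAX, with 41.2% under the peaks and 63.2% around the start, and MYCL had 69.5% and 80.6%. MXI1 had the smallest gap, 56.6% against 58.2%.

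Peak edges returned to the same base at several members. The 2 HA-Bcl-xL peaks in the MNT intron had both edges in common, and the peak at the PSMC3IP start near MLX ended at 40729899 in all 5 libraries. Over the 10 pairs of H3K4me3 libraries, 8.63% to 10.2% of overlapping peaks began and 8.98% to 9.79% ended at the same base. The shares of peaks with both edges in common, or with an edge common to all 5 libraries, were not computed.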
